A study of Mus musculus with 5 samples.

Results

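The respiratory chain genes comprised 110 of the 27678 gene symbols in the deposited table: 97 encoded in the nucleus and 13 in the mitochondrial genome. Members were taken by symbol. Names beginning with Ndufa, Ndufb, Ndufc, Ndufs or Ndufv gave complex I, the 4 genes Sdha to Sdhd complex II, Uqcr complex III, Cox followed by 4 to 8 complex IV, and Atp5 complex V, and symbols such as mt-Nd1, mt-Co1, mt-Cytb and mt-Atp6 gave the mitochondrially encoded subunits. Another 14 pseudogene symbols that hold -ps were dropped. Ndufa11b, Ndufb4c and Ndufs6b (complex I) and Cox6c2 (complex IV) are annotated as processed pseudogenes without -ps in the symbol. The rule kept them, and they count among the nuclear members throughout. The name rule also took in 8 Ndufaf assembly factors of complex I, and Ndufa4 and Ndufa4l2, which belong with complex IV, were placed there.

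RNA-seq was carried out on dendritic cells sorted from mouse bone marrow cultures of 2 genotypes, Etv3+/+ (2 libraries) and Etv3-/- (3 libraries). All cultures ran 6 days with 2 cytokines that turn marrow progenitors into dendritic cells, IL-4 (5 ng/ml) and GM-CSF (20 ng/ml). Live single cells that were CD11c+, intermediate for CD11b, high for MHC-II and CD115- were sorted to over 95% purity, and RNA from up to 60000 cells entered a low-input SMART-Seq library. Etv3 encodes a repressor of the ETS family of transcription factors. The sources used here do not give the age of the mice, the design of the Etv3 allele or whether replicates came from separate animals, so a p-value here reflects library-to-library spread that may be technical.

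The respiratory chain sits in the inner mitochondrial membrane. Complexes I and II feed electrons from NADH and succinate into ubiquinone, complex III passes them to cytochrome c, complex IV hands them to oxygen, and complex V, the ATP synthase, uses the resulting proton gradient to make ATP. Complex II is built wholly from nuclear genes, whereas the other complexes combine nuclear subunits with a few subunits encoded in mitochondrial DNA, which is transcribed by its own polymerase. Dendritic cells cultured with GM-CSF respire at rest and shift towards glycolysis on activation.

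Recovered depth was 42983550 to 68253936 reads per library. Etv3 itself gave 23050 and 25447 normalized counts in Etv3+/+ libraries and 18691, 20416 and 22856 in Etv3-/- libraries. The Etv3-/- values were lower without overlap, and limma did not call the difference (log2 fold change -0.23, adjusted p = 0.567, 95% interval -0.70 to 0.23). With all splits of 2 against 3 libraries, an exact two-sided permutation gave p = 0.2, where 0.1 is the smallest possible. Whether the counted reads lie in the deleted part is not known, so this gene does not check the labels. Of 12 macrophage and monocyte markers, 3 (C1qa, C1qb and C1qc) rose. Fcgr1 was at 0 in 3 of the 5 libraries and no other marker of the list in any. The summed level of that list was 34388 to 35966 in Etv3+/+ and 54499 to 74851 in Etv3-/- libraries. Csf1r, which encodes the CD115 used as a negative gate, was at 1018 and 1348 against 3493, 2403 and 2889. The 10 dendritic cell markers, none at 0, summed to 1229076 to 1627646 in Etv3+/+ and 2409057 to 3215661 in Etv3-/- libraries, and limma called none. That gap lay in 4 genes of the MHC-II pathway (H2-Aa, H2-Ab1, H2-Eb1 and Cd74), at 884152 to 1271959 against 2079251 to 2843790, and the other 6 summed to 344924 to 355687 against 313196 to 371871, with overlap. The part that these marker differences play in the results below was not tested.

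Of the 110 members, 103 reached a normalized count of 10 in at least 2 libraries and were tested, 91 nuclear and 12 mitochondrial. None of the 103 passed a Benjamini-Hochberg adjusted p of 0.05 in limma, where 0.876% of all 13813 tested genes were called higher and 0.319% lower in Etv3-/- libraries, 1.19% in either direction. The lowest adjusted p of any member was 0.161, for Sdhc. At an unadjusted limma p under 0.05 stood 9 members, 8.74% of those tested, against 18.0% of all tested genes. edgeR on the recovered reads called 0 members, with 10 at an unadjusted p under 0.05, where it called 1.14% of all tested genes in either direction and 17.0% had an unadjusted p under 0.05. DESeq2 on the same reads called 3 members, all higher, namely Cox8a, Sdhc and Atp5d, where it called 4.60% of tested genes higher.

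Most nuclear members had fold changes with narrow intervals. In 61 of the 91 tested nuclear members (67.0%) the 95% interval of the fold change stayed within a 2-fold change in either direction, against 28.9% of all tested genes. This background was not matched for level, and 85 of the 91 had a mean normalized count of 200 or more. Log2 fold changes ran from -1.14 for Cox6a2 to 0.78 for Sdhc, with a median of 0.18, and 60 were positive and 31 negative (65.9% positive). Over all tested genes the median was -0.06 and 46.3% were positive. Groups did not overlap in 24 nuclear members that were higher in Etv3-/- libraries (background 16.7%) and in 8 that were lower (background 19.3%), and together these made up 31.1% of tested members against 36.0% of all tested genes. The mitochondrially encoded members were all lower in the mean of the Etv3-/- libraries, but their intervals were wide and for each of the 12 the values of the genotypes overlapped. Annotated genes overlap 43 of the 97 nuclear members, in 34 cases from the opposite strand, and in 24 over 10% of the transcript occurs in another locus; such levels are uncertain where strand or multiply matching reads were not resolved. Gene positions below are on mm10.

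**Figure D1:**
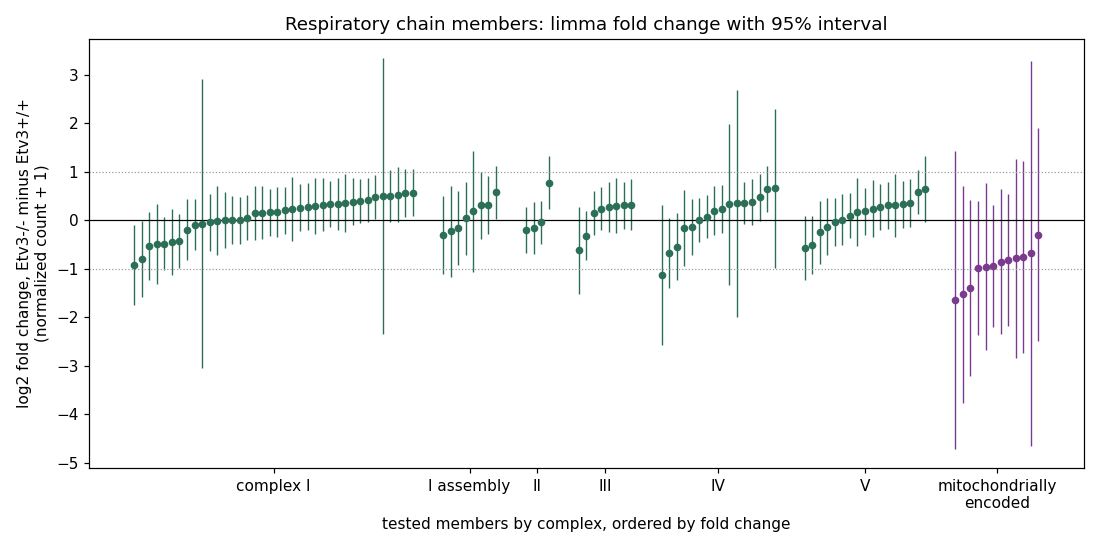
Log2 fold change (Etv3-/- minus Etv3+/+, on normalized counts plus 1) of the 103 tested members with the 95% limma interval, by complex and ordered within each; nuclear members in green, mitochondrially encoded members in purple, dotted lines at a 2-fold change. The nuclear members gather around a median of 0.18, with 61 of 91 intervals inside the dotted lines and some as wide as the mitochondrial ones, and the 12 mitochondrial members lie between -1.64 and -0.30 with intervals that all cross 0.

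Summed over the 97 nuclear members, the share of all normalized counts was 1.11% in each Etv3+/+ library and 1.28%, 1.18% and 1.31% in Etv3-/- replicates 1, 2 and 3. These shares did not overlap between genotypes and differed by 0.145 percentage points in the mean. The summed normalized counts of the same members did overlap. They were 583449 and 650543 in Etv3+/+ and 663071, 626136 and 688162 in Etv3-/- libraries, so the separation held only relative to the library total. That total includes the mitochondrial counts, which were highest in Etv3+/+ replicate 2, and nuclear shares without them were not calculated. In bulk samples such as these, fewer cells of a type and less RNA per cell cannot be told apart. The 13 mitochondrial genes took 1.82% and 5.84% of counts in Etv3+/+ replicates, against 1.99%, 2.89% and 0.985% in Etv3-/- replicates. Etv3+/+ replicate 2 was the highest and Etv3-/- replicate 3 the lowest, while the other 3 libraries of both genotypes lay between them. The ratio of mitochondrial to nuclear member counts was 1.64 and 5.25 against 1.56, 2.46 and 0.749, with the same libraries highest and lowest.

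**Figure D2:**
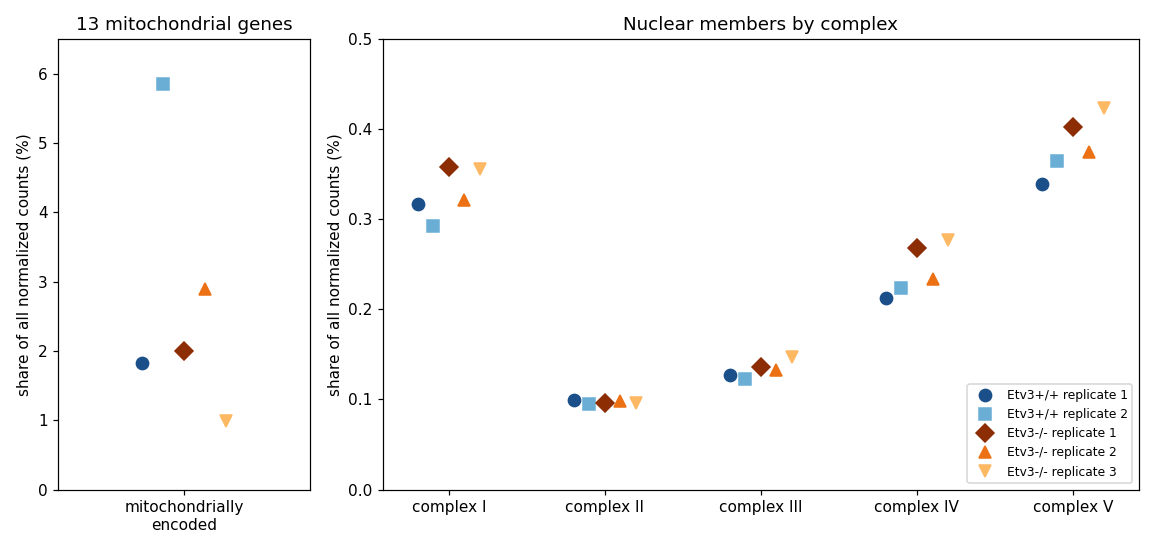
Share of all normalized counts (%) held by the mitochondrial members (left) and by the nuclear members of each complex (right), 1 point per library; the 2 panels have different axes. The mitochondrial share spans 0.985% to 5.84% with both genotypes mixed, whereas complex II stays between 0.0946% and 0.0997% in all 5 libraries.

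Complex I takes electrons from NADH through the Ndufv subunits and passes them along iron-sulphur centres in the Ndufs core to ubiquinone. Of its 38 tested nuclear members, 25 had a positive and 13 a negative fold change, with a median log2 fold change of 0.17, and their share of counts was 0.317% and 0.293% in Etv3+/+ against 0.357%, 0.321% and 0.356% in Etv3-/- libraries. Ndufv2, a core subunit of the NADH-binding module, was at 10906 and 12783 normalized counts in Etv3+/+ and 9618, 9494 and 6627 in Etv3-/- libraries. All Etv3-/- values were below both Etv3+/+ values, with a log2 fold change of -0.48 (95% interval -1.03 to 0.06, limma adjusted p = 0.335). After the correction for GC content and length given below, the log2 fold change of Ndufv2 was -0.08. Ndufa7, an accessory subunit and the highest nuclear member of complex I per length, was at 10691 and 8317 against 12490, 10323 and 11018, and its groups overlapped. Ndufa10, an accessory subunit, was at 4930 and 4084 against 7078, 5817 and 7075, and Ndufv3, an accessory subunit of the NADH-binding module, at 5053 and 4381 against 8060, 5995 and 6891. In both, all Etv3-/- values were above both Etv3+/+ values, with log2 fold changes of 0.56 and 0.56 (limma adjusted p = 0.223 and 0.235).

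Ndufb4 and Ndufb6, accessory subunits of the membrane arm, had the lowest fold changes among nuclear members of complex I. Ndufb4 (chr16:37647170-37654453, minus strand) was at 1125 and 1804 normalized counts in Etv3+/+ and 687, 1009 and 616 in Etv3-/- libraries. All Etv3-/- values were below both Etv3+/+ values, with a log2 fold change of -0.92 (95% interval -1.74 to -0.10, limma adjusted p = 0.237). Of the 50-base windows of its transcript, 37.0% also occur in other annotated loci, among them the processed pseudogene Ndufb4c, which is also a member. The level of Ndufb4 is therefore uncertain. Ndufb6 (chr4:40270591-40279421, minus strand) was at 4910 and 7104 against 3513, 4817 and 2287, a log2 fold change of -0.80 (95% interval -1.59 to -0.02, limma adjusted p = 0.268). The highest Etv3-/- library lay just under the lower Etv3+/+ library, and the gene overlaps Smim27 on the opposite strand. Of the 8 assembly factors, which help build complex I and are not part of it, Ndufaf8 was the one at an unadjusted p under 0.05, with 1436 and 1243 counts against 2132, 2032 and 1824 (log2 fold change 0.58, limma adjusted p = 0.259).

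Complex II is succinate dehydrogenase, which links the tricarboxylic acid cycle to the chain and has no mitochondrially encoded subunit. Sdha, the flavoprotein that oxidises succinate, was at 24460 and 23885 normalized counts in Etv3+/+ and 22002, 25524 and 23048 in Etv3-/- libraries. Sdhb, the iron-sulphur subunit, was at 8011 and 6323 against 5603, 5975 and 7690, and Sdhd, a membrane anchor, at 18294 and 23539 against 19090, 18338 and 16952. For these 3 subunits the groups overlapped, with log2 fold changes of -0.04, -0.16 and -0.20. Sdhc (chr1:171127165-171150603, minus strand), the other membrane anchor, was at 1684 and 1504 against 3123, 2337 and 2782. Each Etv3-/- library was above both Etv3+/+ libraries, a log2 fold change of 0.78 (95% interval 0.23 to 1.33, limma adjusted p = 0.161). edgeR did not call it, and DESeq2 did, with an adjusted p of 0.0274 and a log2 fold change of 0.82. The complex as a whole held 0.0997% and 0.0946% of counts in Etv3+/+ and 0.0959%, 0.0980% and 0.0964% in Etv3-/- libraries.

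Complex III, the cytochrome bc1 complex, moves electrons from ubiquinol to cytochrome c. Of its 8 nuclear members 6 had a positive and 2 a negative fold change, with a median of 0.25, and its count share was 0.128% and 0.123% against 0.136%, 0.132% and 0.147%. Uqcrc1, a large core subunit, was at 20560 and 13716 normalized counts against 18030, 20657 and 23858, with overlap. Uqcrc2, the second core subunit, was at 6832 and 6732 against 7264, 8025 and 8802. It was the single member of this complex whose groups did not overlap, with a log2 fold change of 0.24 (95% interval -0.21 to 0.68, limma adjusted p = 0.546). Uqcrb, which helps bind ubiquinone, had the lowest fold change among nuclear members of complex III, at 9368 and 18858 against 9489, 11916 and 5756. Etv3+/+ replicate 2 was the highest and Etv3-/- replicate 3 the lowest library, the other 3 lay close together, and 43.2% of its 50-base windows occur in other annotated loci. Uqcrh, the hinge protein, was at 7709 and 9614 against 11153, 8868 and 12547, with overlap.

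Complex IV, cytochrome c oxidase, reduces oxygen. Of its 16 tested nuclear members 11 had a positive and 5 a negative fold change, with a median of 0.21, and its share of counts was 0.212% and 0.224% in Etv3+/+ against 0.268%, 0.233% and 0.277% in Etv3-/- libraries. Cox8a (chr19:7215153-7217616, minus strand), a small subunit and the highest nuclear member of the complex per length, was at 14979 and 15572 normalized counts against 25490, 20347 and 25818. Every Etv3-/- library was above both Etv3+/+ libraries, with a log2 fold change of 0.64 (95% interval 0.16 to 1.11, limma adjusted p = 0.175). DESeq2 called it, with an adjusted p of 0.0247. Cox5a, a subunit on the matrix side, was at 9935 and 11153 against 13477, 13231 and 17349, without overlap (log2 fold change 0.47, limma adjusted p = 0.295). Cox4i1, the common form of the largest nuclear subunit, was at 23642 and 21772 against 25123, 22382 and 31232, and Cox6b1, on the intermembrane face, was at 10785 and 11657 against 12998, 11170 and 15640. In both, the groups overlapped.

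Several complex IV subunits have a second gene used in muscle, lung or testis, and the form of these cells was almost wholly the common one. Cox7b2 and Cox8c were at 0 reads in every library, which over the 275655969 reads of all 5 libraries allows a mean of up to 0.586 normalized counts, for counting error alone. Cox8b had 1 read in all, Cox4i2 had 15 reads, all in Etv3+/+ replicate 1, and Ndufa4l2 had 33. Cox6a2 (chr7:128205435-128206387, minus strand), the form typical of heart and muscle, was at 155 and 167 normalized counts against 64.5, 100.3 and 58.8. The groups did not overlap, and the log2 fold change of -1.14 was the lowest among nuclear members but came with a wide interval (95% interval -2.58 to 0.30, limma adjusted p = 0.385). Cox6a2 made up 1.86% and 2.06% of Cox6a counts in Etv3+/+ and 0.618%, 1.05% and 0.526% in Etv3-/- libraries, while Cox6a1, the common form, was at 8157 and 7917 against 10379, 9483 and 11109. Cox6a2 overlaps Itgad on the opposite strand, so its level is uncertain if strand was not used in counting. Cox6b2, the testis form of Cox6b, was at 64.3 and 66.7 against 105, 61.9 and 171, with overlap.

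Within the Cox7a family, Cox7a2l, a factor that joins complexes III and IV into supercomplexes, and Cox7a2, the common subunit, were at like levels per length. Cox7a2l made up 43.4% and 47.0% of the family's counts per length in Etv3+/+ and 53.4%, 50.8% and 47.0% in Etv3-/- libraries. Cox7a1, the muscle form, was at most 0.480% in any of them. Of Cox7b, a small subunit with a single working form here, 10140 and 17943 counts were found against 9393, 10155 and 6393, with overlap. Ndufa4, which sits with complex IV, was at 2117 and 3634 against 1874, 2265 and 1623, also with overlap.

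Complex V has a catalytic F1 head, built around the alpha and beta subunits, and a membrane rotor of c subunits. Of its 17 nuclear members 12 had a positive and 5 a negative fold change, with a median of 0.18, and its share of counts was 0.339% and 0.364% against 0.402%, 0.374% and 0.423%. Atp5b, the catalytic beta subunit, had the highest mean count of any nuclear member, at 39411 and 39736 against 48251, 46307 and 55245. All Etv3-/- values were above both Etv3+/+ values (log2 fold change 0.33, 95% interval -0.15 to 0.81, limma adjusted p = 0.441). Atp5a1, the alpha subunit, was at 34726 and 32980 against 37924, 34326 and 43414, and Atp5c1, the central stalk, at 21853 and 31521 against 27457, 25489 and 26641. Both groups of values overlapped. Atp5d (chr10:80138632-80145818, plus strand), the delta subunit of the stalk, was at 11850 and 11009 against 18744, 14897 and 17915. There was no overlap (log2 fold change 0.58, 95% interval 0.12 to 1.04, limma adjusted p = 0.197), and DESeq2 called it with an adjusted p of 0.0408. The gene overlaps Cbarp on the opposite strand.

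The c subunit of the rotor is made from 3 genes that encode the same mature protein. Atp5g3 gave most of the family's counts, 61.5% and 75.1% in Etv3+/+ and 61.0%, 67.3% and 67.3% in Etv3-/- libraries. Atp5g1 gave 28.7% and 17.1% against 23.5%, 22.5% and 22.6%, and Atp5g2 gave 9.80% and 7.85% against 15.5%, 10.2% and 10.1%. Atp5g2 had the largest fold change among nuclear members of complex V, at 876 and 1151 counts against 1975, 1325 and 1469 without overlap (log2 fold change 0.64, limma adjusted p = 0.305), but 87.4% of its 50-base windows occur in a transcribed pseudogene, so its level is uncertain.

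**Figure D3:**
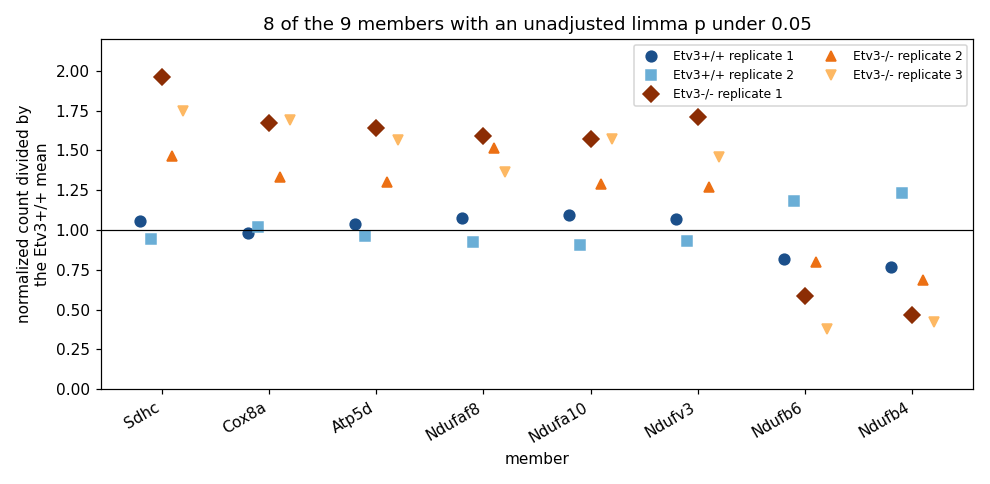
Normalized counts of 8 of the 9 members with an unadjusted limma p under 0.05, each divided by the mean of the Etv3+/+ libraries (line at 1), 1 point per library. In the 6 members shown that are higher, all 3 Etv3-/- points lie above both Etv3+/+ points, and in Ndufb6 and Ndufb4 all lie below; none passed adjustment over 13813 genes.

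Etv3 belongs to the ETS family, whose members bind a GGAA core, and nuclear respiratory genes are known for sites of NRF1, GABP (itself an ETS factor) and YY1. RefSeq promoter windows (GRCm38.p6, from 250 bases before to 50 after each start) were held for 76 of the 97 nuclear members, in 81 windows. On either strand, the ETS letters CCGGAAGT were found in 6.17% of these windows and in 3.89% of all 32851 windows, the NRF1 letters (GCGCA, any base, then GCGC) in 24.7% against 4.60%, and the YY1 letters AAGATGGC in 13.6% against 2.75%. The 5 members with the ETS letters were Atp5h, Cox8a, Ndufs3, Uqcr11 and Uqcrh. Their median log2 fold change was 0.32, against 0.17 for the 69 tested members with a window without them. For NRF1 the member medians were 0.18 with and 0.16 without, and for YY1 0.09 and 0.18. Over all tested genes with a window, the median was -0.03 for the 954 with the ETS letters and -0.06 for the 9677 without. For NRF1 these all-gene medians were -0.07 with and -0.06 without, and for YY1 0.02 and -0.06. A match is a description of the letters and not a binding site, and the windows do not cover more distant elements. The windows of Cox8a, with 2 ETS matches, and of Ndufb4, with 3 NRF1 matches, are shown. They were picked because DESeq2 called Cox8a and because Ndufb4 had the lowest fold change among nuclear members of complex I. Atp5d, also called by DESeq2, had none of the ETS, NRF1 or YY1 letters in its 2 windows, and for Sdhc no window was held. The sequences are those of the strand of the gene. Capitals mark the matches, and both ETS matches in Cox8a are the reverse complement of CCGGAAGT.
Cox8a (chr19:7217567-7217866, minus strand): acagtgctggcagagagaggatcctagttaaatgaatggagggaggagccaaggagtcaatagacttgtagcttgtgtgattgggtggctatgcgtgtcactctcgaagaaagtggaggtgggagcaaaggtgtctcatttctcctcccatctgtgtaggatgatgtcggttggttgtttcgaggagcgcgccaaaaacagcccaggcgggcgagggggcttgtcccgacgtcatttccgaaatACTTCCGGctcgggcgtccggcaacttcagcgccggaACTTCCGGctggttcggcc
Ndufb4 (chr16:37654319-37654618, minus strand): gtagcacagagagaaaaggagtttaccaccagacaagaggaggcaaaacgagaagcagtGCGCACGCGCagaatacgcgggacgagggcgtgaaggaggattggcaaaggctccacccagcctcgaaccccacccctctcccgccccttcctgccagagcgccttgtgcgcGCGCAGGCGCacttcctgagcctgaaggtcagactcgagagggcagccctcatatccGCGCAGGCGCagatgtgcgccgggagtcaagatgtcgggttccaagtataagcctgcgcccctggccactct
The matches in Cox8a start at -6 and 31 from the start of transcription, and those in Ndufb4 run from -191 to -22, and no match overlapped another.

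The 13 mitochondrially encoded members fell into 2 sets by level per length. Those above 1000 normalized counts per kb were mt-Co1, the catalytic subunit of complex IV, at a mean of 489718, mt-Cytb, of complex III, at 238566, and 5 complex I subunits, mt-Nd1 at 212010, mt-Nd5 at 56796, mt-Nd4 at 54972, mt-Nd6 at 51051 and mt-Nd2 at 50681. The other 6 were far lower, with mt-Co3 at 774, mt-Atp6 at 559, mt-Co2 at 519, mt-Atp8 at 282, mt-Nd3 at 50.7 and mt-Nd4l at 22.6 per kb. The lowest of the first set lay 65.5-fold above the highest of the second, and mt-Co1 lay 943-fold above mt-Co2, although both are subunits of the same complex and neighbours on the same strand of the mitochondrial genome. The first set held 99.78% to 99.95% of mitochondrial member counts in the 5 libraries.

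The low genes were largely those with a copy in the nuclear genome. Of the 50-base windows of each transcript, 100% for mt-Co2, 99.9% for mt-Co3, 99.5% for mt-Atp6, 98.8% for mt-Nd4l and 98.0% for mt-Nd3 also occur in another annotated locus. The share was 62.2% for mt-Nd4, 51.1% for mt-Co1, 8.19% for mt-Nd2, 7.61% for mt-Nd5 and 0% for mt-Nd1, mt-Nd6, mt-Cytb and mt-Atp8. Most copies lie in a row of 7 pseudogenes on the minus strand of chr1:24611535-24616197, among them Gm28661, whose 681 compared bases are all identical to mt-Co2. The first 60 bases of mt-Co2 and mt-Co1 and of their nuclear copies are shown to make the likeness visible; coordinates are GRCm38 and capitals mark bases that differ from the mitochondrial gene.
mt-Co2 (chrM:7013-7072, plus strand): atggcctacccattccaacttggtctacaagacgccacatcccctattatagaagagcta
Gm28661 (chr1:24615506-24615565, minus strand): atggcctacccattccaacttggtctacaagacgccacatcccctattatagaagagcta
Gm13341 (chr2:22587903-22587962, minus strand): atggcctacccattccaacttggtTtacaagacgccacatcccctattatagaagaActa
mt-Co1 (chrM:5328-5387, plus strand): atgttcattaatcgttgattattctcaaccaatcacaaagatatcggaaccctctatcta
Gm13340 (chr2:22589588-22589647, minus strand): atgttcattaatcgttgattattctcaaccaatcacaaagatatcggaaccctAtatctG
Gm28661 matches mt-Co2 at every base of this stretch, and Gm13341 and Gm13340 each differ at 2 of 60 bases. The pseudogenes were not analysed here, and how reads that match several loci were counted is not given in the sources used here, so the levels of the copied genes are uncertain. mt-Atp8 was low without an annotated copy, but it overlaps mt-Atp6. Copies were looked for only among annotated transcripts, so an unannotated copy of mt-Atp8 would have been missed.

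**Figure D4:**
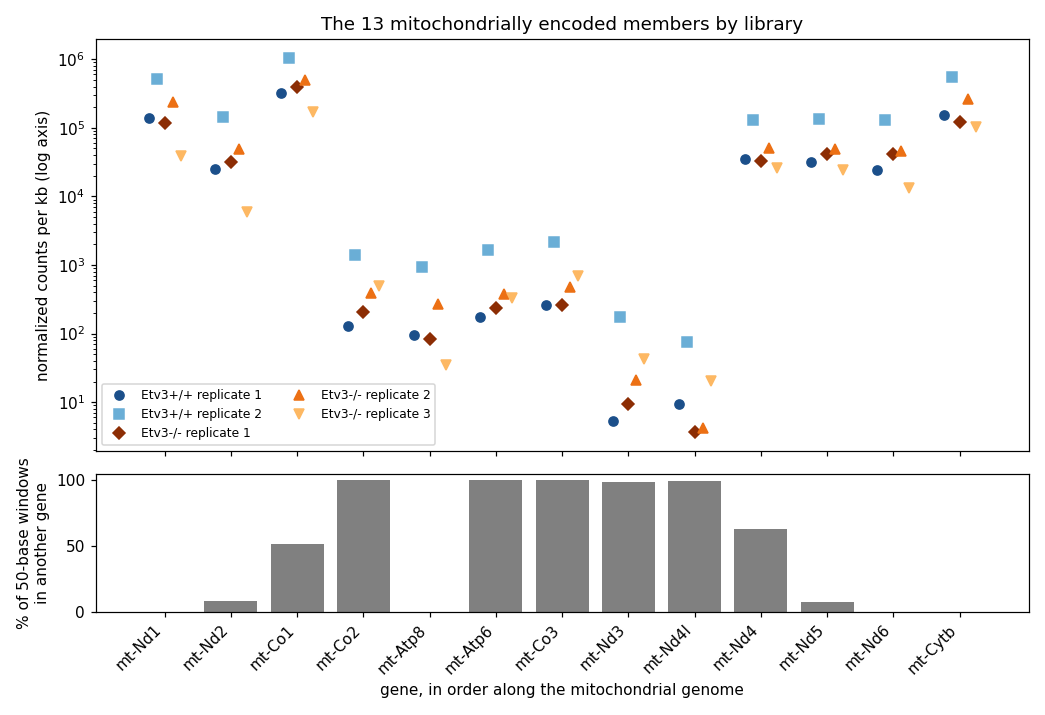
Upper panel: normalized counts per kb (log axis) of the 13 mitochondrially encoded members in order along the mitochondrial genome, 1 point per library. Lower panel: share of the 50-base windows of each transcript that also occur in another annotated gene; the 5 genes at 98.0% to 100% are all among the 6 low ones, and Etv3+/+ replicate 2 is the highest library for every gene.

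mt-Co1 was at 499046 and 1634445 normalized counts in Etv3+/+ and 604246, 779334 and 265997 in Etv3-/- libraries. mt-Cytb was at 178827 and 630590 against 140848, 296815 and 117521, and mt-Nd1, of the proton-pumping arm, at 135422 and 501937 against 114395, 224960 and 37751. In all 3 the highest value was Etv3+/+ replicate 2, and Etv3+/+ replicate 1 lay among the Etv3-/- libraries. Over the 12 tested members the log2 fold changes ran from -1.64 for mt-Atp8 to -0.30 for mt-Co2, with a median of -0.90, standard errors of 0.54 to 1.71 and a lowest limma adjusted p of 0.395, for mt-Nd1. Etv3+/+ replicate 2 exceeded replicate 1 by 3.28 to 5.58-fold in the first set and by 7.96 to 32.6-fold in the second. Both ends of the second range rest on few reads in Etv3+/+ replicates 1 and 2. These were 3 and 26 for mt-Nd4l and 2 and 71 for mt-Nd3. Without Etv3+/+ replicate 2 the median was 0.0038 and single genes ran from -0.45 (mt-Nd1) to 1.41 (mt-Co2), so the direction rested on that library. The 13 tested mitochondrial ribosomal and transfer RNAs, which come from the same transcripts, had a median of -0.96, with 12 negative, and the large ribosomal RNA mt-Rnr2 was at 76000 and 423623 against 143999, 132581 and 52089.

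The mix of mitochondrial messages also differed between libraries. mt-Co1 made up 52.1% and 47.9% of mitochondrial member counts in Etv3+/+ and 58.3%, 50.7% and 51.6% in Etv3-/- libraries. mt-Nd1 made up 14.1% and 14.7% against 11.0%, 14.6% and 7.32%, and mt-Nd2 2.75% and 4.31% against 3.16%, 3.30% and 1.18%. The lowest share of both was in Etv3-/- replicate 3. mt-Cytb was highest in that library, at 22.8%, against 13.6% to 19.3% in the others. mt-Nd5 and mt-Nd6, which overlap on opposite strands, were at 6.00% and 7.28% against 7.36%, 5.92% and 8.69%, and at 1.33% and 1.98% against 2.07%, 1.54% and 1.33%.

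The values of nuclear members followed the GC content of their transcripts within libraries. Across the 91 tested nuclear members, Spearman's rho between GC content and the deviation of a library from the 5-library mean was 0.06 and -0.61 for the Etv3+/+ pair of libraries and 0.42, -0.10 and 0.44 for the Etv3-/- libraries in order of replicate. Over 13768 tested genes it was 0.05 and -0.42 against 0.09, -0.11 and 0.41; genes are not independent replicates. Of the 85 nuclear members with a mean of 200 or more, the 42 with a GC content below the median of 50.4% had a median log2 fold change of -0.07 (17 positive, 25 negative), and the 43 at or above it had 0.29 (39 positive, 4 negative). All tested genes split at the same GC content had medians of -0.29 and 0.12. Of the 85 members, the 7 whose Etv3-/- values were lower without overlap had a median GC content of 47.5%, and the 24 that were higher 53.7%. After correction for GC content and length, the nuclear median was 0.11, with 57 positive and 34 negative members, and the mitochondrial median was -0.04, with 6 positive and 6 negative. Cox8a, Sdhc and Atp5d were then at a log2 fold change of 0.50, 0.83 and 0.51, and no member was called. Some other described members came closer to no change, among them Ndufv2 from -0.48 to -0.08, Uqcrb from -0.62 to -0.24 and Cox7b from -0.67 to -0.27. Others did not, among them Ndufb4 and Ndufb6, at -1.08 and -0.83 after correction. Cox6a2 went from -1.14 to -1.31, Sdhb from -0.16 to -0.37, Uqcrc2 from 0.24 to 0.50 and Atp5g1 from 0.27 to 0.48. What part of the genotype difference goes with this library trend was not tested further.

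**Figure D5:**
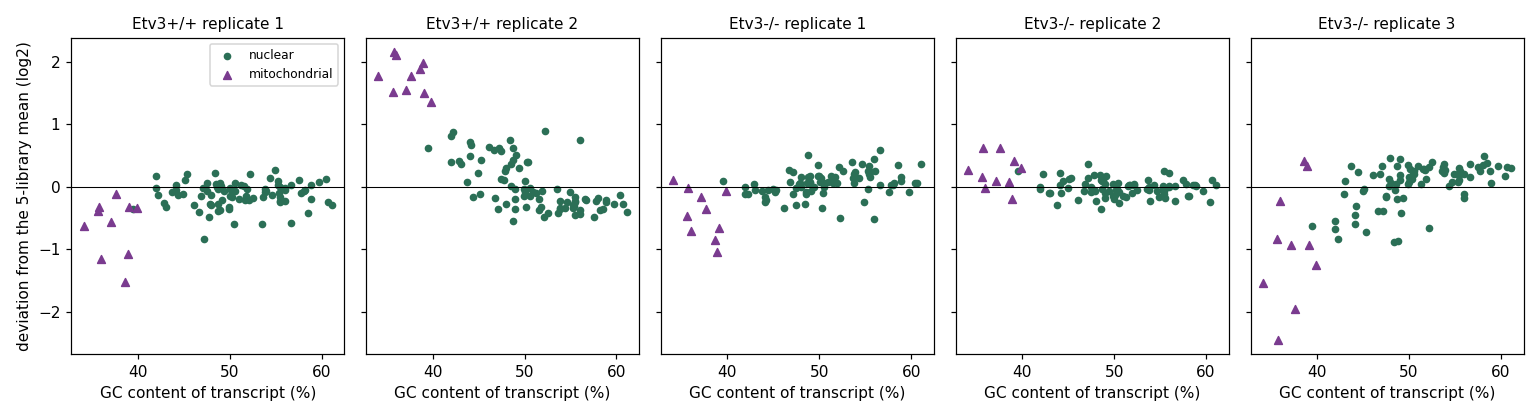
Deviation of each tested member with a mean of 200 or more from its 5-library mean (log2 of normalized count plus 1) against the GC content of its transcript, 1 panel per library; nuclear members as green circles, mitochondrial members as purple triangles. Etv3+/+ replicate 2 slopes down (rho -0.61 over the 91 tested nuclear members) and Etv3-/- replicate 3 up (0.44).

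Genes around the chain gave no call either. None of the 38 tested assembly factors for complexes I to V outside the member rule passed the limma threshold, with a median log2 fold change of -0.07 (16 positive, 22 negative). The highest 2 were Coa5, for complex IV, at 12004 and 17331 against 12222, 14440 and 11063, and Sdhaf2, which adds flavin to Sdha, at 6374 and 6504 against 5806, 5339 and 6458. Of the 21 electron carriers and enzymes of ubiquinone synthesis none was called (median 0.28, 15 positive). Cyc1, cytochrome c1 of complex III, was at 8830 and 5656 against 8046, 8571 and 10269, with overlap, and Etfa, which carries electrons from fatty acid oxidation, at 6126 and 5718 against 4449, 4928 and 5657, without overlap.

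Of the 28 tested genes for transcription, replication and RNA of the mitochondrial genome none was called (median 0.07), with Fastk at 5077 and 3723 against 4330, 4710 and 4270 and Polg, the mitochondrial DNA polymerase, at 3698 and 2653 against 2699, 3875 and 3379. The 10 regulators of respiratory gene transcription gave no call (median 0.11). Yy1 was at 2282 and 4845 against 3825, 3908 and 2184, with overlap, while Gabpb1, a partner of the ETS factor Gabpa, was at 3052 and 3100 against 2489, 2679 and 1833, without overlap (log2 fold change -0.42, limma adjusted p = 0.417). The 14 genes of the tricarboxylic acid cycle had a median of 0.20 (11 positive) and no call. Mdh2 was at 13337 and 10977 against 11821, 11570 and 14311, and Cs, citrate synthase, at 11082 and 10028 against 13413, 11858 and 12573, without overlap.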

How the data were processed

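RNA-seq libraries of sorted dendritic cells from Etv3+/+ (2) and Etv3-/- (3) cultures were compared. The authors deposited a signal, normalized counts per gene, made by dividing reads by a library factor. DESeq2 1.26.0, featureCounts, Subread 1.6.3, STAR 2.7.3a and Trimmomatic 0.36 on mm10 are named per the submitters' processing notes; the sources used here do not give their settings, strand use or the treatment of multiply matching reads. Low values were whole multiples of 0.856 to 1.24 normalized counts per read, so whole reads were recovered (100% of values within 0.1 of a whole number). Without molecular identifiers, copies made by PCR count as reads.

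Groups came from the genotype label. The 13813 genes with 10 or more normalized counts in at least 2 libraries were tested with limma 3.58.1 (trend, R 4.3.3) on log2(normalized count + 1), two-sided, with Benjamini-Hochberg adjustment over all tested genes and a threshold of 0.05. Such fold changes understate those of low genes. edgeR 4.0.16 and DESeq2 1.42.0 on recovered reads, other pseudocounts, filters and scalings, sample weights, a replicate block, a correction for GC content and length (local regression, span 0.3) and left-out libraries were alternatives. Intervals are at 95%. The procedure was tested on simulated data without a GC trend and with the same variance setting for every gene, unlike these libraries.

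Positions, lengths, GC content and transcript windows came from GENCODE M21, matched by symbol (98.9% of symbols, all 110 members, GC content for 99.7% of tested genes). Members and lists were chosen with earlier results of these data known. Named in the text were all mitochondrial members, in each complex the 3 nuclear members with the highest mean and the 2 with the largest change without overlap, subunits with paralogue forms, the Sdh subunits and, in lists without calls, the 2 highest genes; other names were chosen after their values were seen, and 1 nuclear member under this rule is not reported here. Neutrophil markers summed to 46765 to 52507 in Etv3+/+ and 12595 to 72078 in Etv3-/- libraries, B cell markers to 1682 to 2235 and 3386 to 5240, T and NK cell markers to 4302 to 4434 and 2208 to 4347, basophil and mast cell markers to 11155 to 19073 and 11863 to 17767, and erythroid markers to at most 11.2. Figures were drawn with matplotlib 3.10.9.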

Additional observations from a re-analysis of the deposited data

How the results depend on the processing

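None of the members was called by limma under any of the alternatives run; DESeq2 called 3. The number of all tested genes called, 165, was 93 without the variance trend, 1169 with DESeq2, 362 after GC content and length correction, 7 without both libraries of the strongest GC trend (1 against 2), and 0 to 80 with 1 library left out. The 0 came without Etv3-/- replicate 1, where 1885 genes had an unadjusted p under 0.05. Leaving out any of the other libraries also moved the count by over 1.5 times, to 54 without Etv3+/+ replicate 1, 80 without Etv3+/+ replicate 2, 2 without Etv3-/- replicate 2 and 10 without Etv3-/- replicate 3. Leaving an Etv3+/+ library out leaves 1, assumed to vary like the Etv3-/- libraries.

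The nuclear median log2 fold change of 0.18 was 0.27 with quantile scaling and 0.094 to 0.24 with 1 library left out, positive throughout. The mitochondrial median of -0.90 ran from -2.22 to 0.0038 with 1 library left out and was 0.54 without both libraries of the strongest GC trend. The difference in mitochondrial share, -1.88 percentage points, ran from -3.89 to 0.134 with 1 library left out and was 0.620 without both. Both signs therefore rested on Etv3+/+ replicate 2. Of 875 refitted values of the 44 members under the naming rule, 812 moved by less than the spread between replicates, 60 moved further (22 mitochondrial, 38 nuclear) and 3 passed the threshold, with DESeq2.

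The labels share replicate numbers, but the deviations of same-numbered libraries correlated at -0.03 and 0.04, so the numbers were not taken to pair them. With the replicate block 269 genes and 0 members were called and the nuclear median was 0.094; with the GC correction and replicate block together, 282 and 0.089. Etv3-/- replicate 3 has no partner and does not enter that difference.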
